A study of Homo sapiens with 8 samples.

Results

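The ID proteins and the E proteins are transcription regulators that share a helix-loop-helix dimerization region. E proteins, encoded by TCF3 (E12 and E47), TCF4 (E2-2) and TCF12 (HEB), bind E-box sequences in DNA as dimers and, in the B lineage, activate genes such as EBF1, PAX5 and the early B-cell program. The ID proteins, encoded by ID1, ID2, ID3 and ID4, lack the basic region that contacts DNA, pair with E proteins and keep them off DNA. TCF4 here is the E protein gene and not the Wnt effector TCF7L2, which is sometimes called by the same name. The 7 genes were followed through every probe set that the platform annotation gives to 1 of them alone, 35 probe sets of 41091 with 1 gene symbol and 7 genes of 19775. ID1 had 1 probe set, ID2 had 2, ID3 had 1, ID4 had 5, TCF3 had 14, TCF4 had 8 and TCF12 had 4. ID2 and ID3 came to attention because of the size of their change in OPM1-labelled cells and of the difference between the lines, so the members were selected on those values, which are given as a description without a test.

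The study measured gene expression on 8 HG-U133 Plus 2.0 arrays in 4 groups of 2, namely OPM1-labelled cells with Zalypsis, OPM1-labelled control cells, MM1S cells with Zalypsis and MM1S control cells. OPM1 and MM1S are, by name, established human myeloma cell lines, and Zalypsis is a marine-derived DNA-binding compound, given in culture at 5 nM until 15 to 20% of the cells were dying. The labels name no genotype, no time of exposure and no vehicle for the control cells, and each line stands for itself alone. Values are the authors' dChip signals on a linear scale, and a signal says nothing about the level of another probe set. Separate cultures are not named for the replicates, and p-values therefore cover only the scatter of these arrays, which may be technical scatter.

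Several features of the arrays touch the results that follow. The plasma cell marker SDC1 averaged 11.9 ± 2.93 and 9.71 ± 4.45 in OPM1-labelled cells with Zalypsis and control, near background, but 2501 ± 186 and 3194 ± 351 in MM1S cells with Zalypsis and control (SD, n = 2 each). The identity of the OPM1-labelled cells rests on the label and was not tested. Of 10 plasma cell markers, 8 were lower and 2 higher in untreated OPM1-labelled than in untreated MM1S cells (limma adjusted p under 0.05). Of all tested genes 32.3% were lower and 26.5% higher. The 2 higher markers were CD38, at 489 ± 126 against 54.2 ± 9.73, and CD27, at 426 ± 50.8 against 93.6 ± 21.0. The summed signal of these 10 markers was 4331 to 4799 and 5754 to 6466 in OPM1-labelled cells with Zalypsis and control, and 26819.7 to 27938 and 35235 to 37483 in MM1S cells with Zalypsis and control. That of 7 B-cell markers was 1271 to 1317 and 7114 to 7998 in OPM1-labelled cells with Zalypsis and control, and 297 to 300.1 and 310.1 to 391 in MM1S cells with Zalypsis and control. Sums over T-cell, fibroblast and epithelial markers lay between 48.8 and 260 on every array. The sum of 5 myeloid markers was 132 to 191 and 59.9 to 73.1 in OPM1-labelled cells with Zalypsis and control, and 70.1 to 93.8 and 72.8 to 74.8 in MM1S cells with Zalypsis and control. Of these 5, CD14 averaged 98.6 ± 34.2 and 5.36 ± 0.658 in OPM1-labelled cells with Zalypsis and control. The other 4 stayed near background, with means of 5.69 to 20.9 with Zalypsis and 8.96 to 21.0 in control cells of that line. The part of CD14 in the results was not tested. The poly-A controls, probe sets for spiked bacterial RNA, had a geometric mean of 1862 and 1349 on the OPM1-labelled Zalypsis arrays, against 299.7 and 448 on the OPM1-labelled control arrays, and between 19.7 and 25.7 in MM1S. The median signal of an array was 23.0 to 24.8 over all 8 arrays. OPM1-labelled control replicate 1 stood apart in the ratio of 3′ to 5′ signal, at 2.26 for GAPDH and 5.80 for ACTB, while the 7 others had 0.963 to 1.06 for GAPDH and 1.78 to 2.62 for ACTB. In bulk samples fewer cells of a type and less RNA per cell cannot be told apart, and some cells of the treated cultures were dying.

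ID2 was higher and ID3 lower with Zalypsis in OPM1-labelled cells, so the 250 bases before their RefSeq starts are shown (GRCh38.p14). ID2 lies on the plus strand with the window at chr2:8681806-8682055, and ID3 lies on the minus strand with the window at chr1:23559502-23559751, both written 5′ to 3′ along the gene. Capitals mark the E-box letters CANNTG, which read the same on both strands, and the CCAAT box, written CCAAT or, from the other strand, ATTGG. The E-box was chosen as the site E proteins bind, and the CCAAT box was added after the sequences were seen.
ID2: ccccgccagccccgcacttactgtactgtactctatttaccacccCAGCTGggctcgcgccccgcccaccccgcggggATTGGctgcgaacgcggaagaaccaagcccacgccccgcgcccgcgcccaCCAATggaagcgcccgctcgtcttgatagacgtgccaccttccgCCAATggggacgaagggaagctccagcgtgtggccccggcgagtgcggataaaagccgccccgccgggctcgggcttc
ID3: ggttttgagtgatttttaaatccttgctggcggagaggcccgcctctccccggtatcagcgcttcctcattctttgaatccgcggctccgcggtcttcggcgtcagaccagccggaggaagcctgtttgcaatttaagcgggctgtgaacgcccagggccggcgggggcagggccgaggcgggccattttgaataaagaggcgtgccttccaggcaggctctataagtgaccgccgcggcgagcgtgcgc
The ID2 window holds 1 E-box, whose first base lies 205 bases before the start, and 3 CCAAT boxes, 172, 122 and 78 bases before it. The ID3 window holds neither. Of 35116 promoter windows of the same length, 61.8% hold an E-box and 11240 hold a CCAAT box. GC content was 69.2% for ID2 and 62.0% for ID3. The motifs do not overlap, and a match or its absence in this window is only a description of the letters.

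Expression of the inhibitors is described first. ID2, which pairs with E proteins in lymphoid and many other cells, was higher with Zalypsis in both lines. Its brighter probe set, 201565_s_at, had signals of 1913 and 1857 in OPM1-labelled cells with Zalypsis, against 171 and 209 in OPM1-labelled control cells. In MM1S it had 696 and 676 with Zalypsis, against 458 and 398 in control cells. The groups did not overlap in either line, and the treated OPM1-labelled arrays were the highest of the 8 while the untreated ones were the lowest. On the deposited scale the means were 9.93 times the control in OPM1-labelled cells and 1.60 times in MM1S. The other ID2 probe set, 201566_x_at, had 942 and 928 with Zalypsis against 107 and 106 in OPM1-labelled control cells, and 299.8 and 281 with Zalypsis against 177 and 193 in MM1S control cells. The probe sets ran together over the 8 arrays, with a Pearson correlation of 0.99 on the log2 scale as a description.

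The log2 fold change of ID2, on log2(signal + 32), was 0.64 ± 0.14 and 0.57 ± 0.13 in MM1S (SE; limma adjusted p = 0.0035 and 0.0043). The MM1S arrays enter the difference between the lines that helped choose ID2, so these p-values are not independent of that choice. In OPM1-labelled cells it was 3.12 ± 0.14 and 2.81 ± 0.13, given without a test. The rise in MM1S was not called after scaling to the poly-A controls (log2 0.43 and 0.37), which lay at background in that line, and 201566_x_at also missed the threshold without MM1S Zalypsis replicate 1 (0.53). In OPM1-labelled cells the same scaling left ID2 higher, by 1.08 and 0.84 on the log2 scale. Such scaling takes the amount of added control RNA as equal in all samples of a line, and the sources used here do not give it. The part of the poly-A controls in the result was not tested.

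ID3, a close relative of ID2 and a known antagonist of TCF3 in germinal centre B cells, was lower with Zalypsis in OPM1-labelled cells. Its only probe set, 207826_s_at, had 62.8 and 50.2 in OPM1-labelled cells with Zalypsis, against 2067 and 2731 in OPM1-labelled control cells. In MM1S the signals were 132 and 144 with Zalypsis and 104 and 121 in control cells. The OPM1-labelled control arrays were far above the other 6, and the treated arrays of that line were the lowest of all. The control mean was 42.5 times the Zalypsis mean in OPM1-labelled cells, a log2 fold change of -4.77 ± 0.16. It was 0.23 ± 0.16 in MM1S, where the means of 138 ± 8.49 with Zalypsis and 113 ± 12.2 in control cells lay close together. Leaving out an array in turn kept the OPM1 value between -4.97 and -4.57, and scaling to the poly-A controls gave -5.74.

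ID1, an inhibitor induced by BMP signals in many tissues, was dim. It had 38.2 and 36.3 in OPM1-labelled cells with Zalypsis, against 17.5 and 20.5 in control cells of that line. In MM1S it had 27.6 and 28.1 with Zalypsis and 21.8 and 27.1 in control cells. The groups did not overlap in either line, but in MM1S the gap was smaller than the spread within the control group and the log2 fold change of 0.09 ± 0.12 was not called (limma adjusted p = 0.646). The OPM1 value was 0.44 ± 0.12, and it turned to -0.33 after scaling to the poly-A controls. ID4, the inhibitor best known from the nervous system and mammary gland, stayed near background: its 5 probe sets lay between 1.05 and 18.8 on all 8 arrays, and none passed the filter on dim probe sets.

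**Figure D1:**
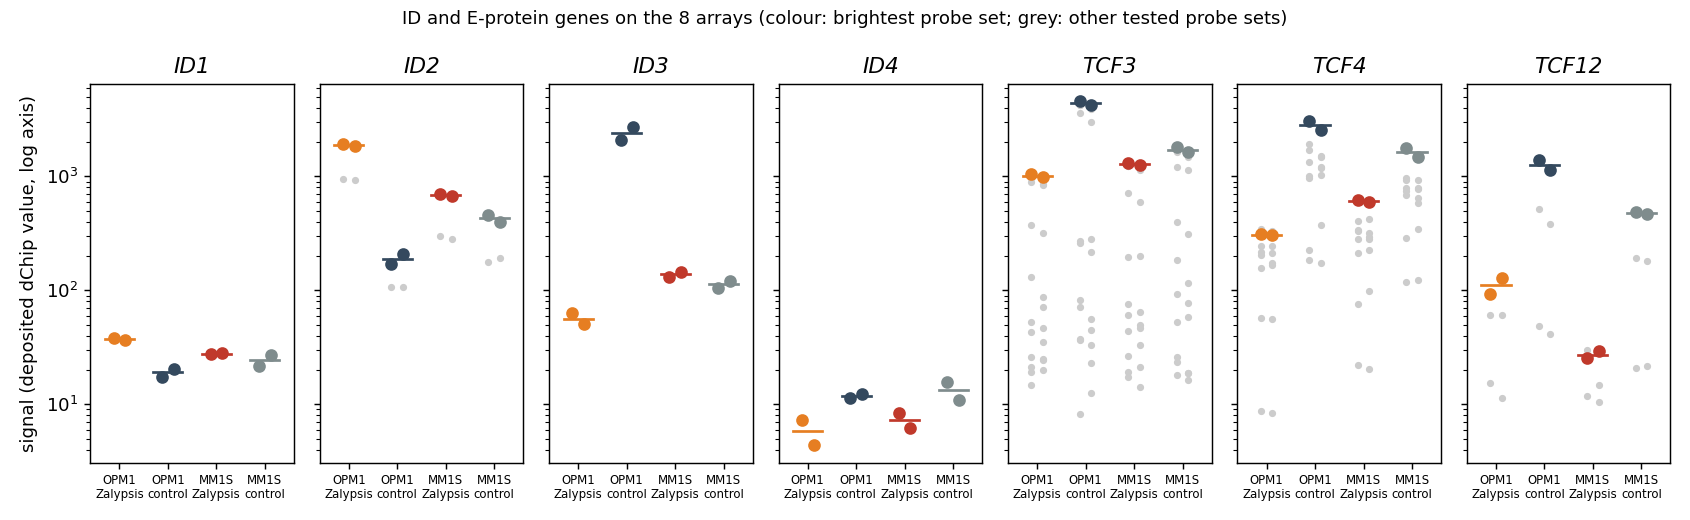
Deposited signal (log axis) of the 7 genes on each of the 8 arrays, by line and treatment. Coloured points are the arrays of each gene's brightest probe set and bars the means of 2, and grey points are its other tested probe sets. ID2 was highest and ID3 lowest in OPM1-labelled cells with Zalypsis, while the coloured points of TCF3, TCF4 and TCF12 were lower with Zalypsis than in the control of either line. No probe set of ID4 passed the filter.

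Most E-protein probe sets fell. Of the 35 probe sets, 26 passed the filter, which dropped the 40% of probe sets with the lowest mean (signal below 20.9). These were all probe sets of ID1, ID2, ID3 and TCF4, 11 of TCF3, 3 of TCF12 and none of ID4. The 9 others had mean signals of 4.52 to 18.2. A probe set can pass through 1 bright group alone, so counts over those that passed describe them and support nothing more. In MM1S 19 of the 26 were called at a limma adjusted p under 0.05, 2 higher and 17 lower, while 32.4% of all 24652 tested probe sets were called, 12.7% higher and 19.8% lower. The 2 higher were those of ID2 and the 17 lower all belonged to E proteins. The median log2 fold change of the 26 was -0.66, against 0.01 over all tested probe sets.

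In OPM1-labelled cells 24 of the 26 were called, 4 higher and 20 lower, beside 58.3% of all tested probe sets, 22.1% higher and 36.2% lower. The members were chosen with this contrast known, and nothing is read from that count. The median of the 26 was -1.90, against -0.07 over all tested probe sets. Groups did not overlap for 23 of the 26 in MM1S, where 65.6% of all tested probe sets had none, and for 24 in OPM1-labelled cells, where 76.8% had none. Scaled to the poly-A controls, the OPM1 response had 25 of the 26 called, 23 of them lower, while 99.4% of all called probe sets were lower and the median of all moved to -1.15.

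TCF12, an E protein that pairs with TCF3 in lymphocytes and with muscle and neural bHLH factors, had the largest fall of the 7 genes in MM1S. Its brightest probe set, 208986_at, had 25.4 and 29.2 in MM1S with Zalypsis, against 483 and 467 in MM1S control cells. In OPM1-labelled cells it had 91.9 and 129 with Zalypsis, against 1387 and 1138 in control cells. Treated and untreated arrays were far apart in both lines, with MM1S with Zalypsis the lowest group and OPM1-labelled control the highest. The control mean was 17.4 times the Zalypsis mean in MM1S and 11.4 times in OPM1-labelled cells. The log2 fold change was -3.10 ± 0.16 in MM1S (limma adjusted p = 1.0e-08) and -3.19 ± 0.16 in OPM1-labelled cells.

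Another TCF12 probe set moved alike. For 238041_at the signals were 11.8 and 10.5 in MM1S with Zalypsis, against 192 and 180.2 in control cells, and 61.2 and 61.1 in OPM1-labelled cells with Zalypsis, against 513 and 383 in control cells. The log2 fold change was -2.34 ± 0.14 in MM1S (limma adjusted p = 4.2e-08) and -2.35 ± 0.14 in OPM1-labelled cells. The dim 215611_at lay between 11.4 and 48.6 on all arrays. It was 0.01 ± 0.14 in MM1S (adjusted p = 0.964) and -0.76 ± 0.14 in OPM1-labelled cells, so it did not run with the bright sets, and 233678_at was below the filter.

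TCF4 was lower on every probe set. This E protein is prominent in plasmacytoid dendritic cells and is expressed through B-cell development. The brightest set, 212386_at, had 625 and 599 in MM1S with Zalypsis, against 1789 and 1482 in control cells, and 313 and 303 in OPM1-labelled cells with Zalypsis, against 3079 and 2559 in control cells. The groups were separate in both lines and the treated OPM1-labelled arrays were the lowest. The control mean was 2.67 times the Zalypsis mean in MM1S and 9.16 times in OPM1-labelled cells. In MM1S the log2 fold change was -1.37 ± 0.15 (limma adjusted p = 7.8e-06), and over the 8 probe sets it ran from -1.55 to -1.09, all called (adjusted p at most 5.4e-05). In OPM1-labelled cells the 8 ran from -3.16 to -1.80.

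The TCF4 probe sets differed in the depth of the fall. The dimmest, 228837_at, had 22.1 and 20.5 in MM1S with Zalypsis, against 118 and 124 in control cells, and 8.72 and 8.42 in OPM1-labelled cells with Zalypsis, against 184 and 174 in control cells. On all 8 sets the treated groups of both lines lay below both control groups. For 212382_at the treated groups overlapped, at 214 and 284 in MM1S and 215 and 214 in OPM1-labelled cells. Correlations with 212386_at over the 8 arrays were 0.92 to 1.00, as a description of probe sets that share arrays and transcripts.

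TCF3, the gene for E12 and E47 on which B-cell commitment depends, fell less in MM1S. Its brightest probe set, 213811_x_at, had 1322 and 1269.5 in MM1S with Zalypsis, against 1801 and 1630.3 in control cells. In OPM1-labelled cells it had 1043 and 986 with Zalypsis, against 4599 and 4244 in control cells. The groups did not overlap, with a small gap in MM1S and a wide one in OPM1-labelled cells. The control mean was 1.32 times the Zalypsis mean in MM1S and 4.36 times in OPM1-labelled cells. The log2 fold change was -0.40 ± 0.12 in MM1S (limma adjusted p = 0.024) and -2.09 ± 0.12 in OPM1-labelled cells.

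The TCF3 call in MM1S was fragile on the brightest probe sets. For 213811_x_at, 210776_x_at and 213730_x_at (log2 -0.42 to -0.39) it was lost without MM1S control replicate 1, without MM1S Zalypsis replicate 1, without MM1S Zalypsis replicate 2 and after poly-A scaling. Without control replicate 1 the values were -0.35 to -0.32. The fourth bright set, 209153_s_at, kept its call with each array left out. It had 721 and 601 in MM1S with Zalypsis, against 1219 and 1140.4 in control cells, and 376 and 317 in OPM1-labelled cells with Zalypsis, against 3627 and 2991 in control cells. Its log2 fold change was -0.81 ± 0.15 in MM1S (limma adjusted p = 0.0010) and -3.14 ± 0.15 in OPM1-labelled cells.

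The other TCF3 probe sets did not speak with 1 voice. In MM1S 7 of 11 were lower and called and none was higher and called, and the 3 dimmer called sets, 215260_s_at, 209152_s_at and 209151_x_at, had log2 fold changes of -1.04, -0.73 and -0.59. Without MM1S control replicate 1, 209152_s_at missed the threshold (-0.57). In OPM1-labelled cells 8 were lower and called, and 1, the dim 216647_at, was higher, with 19.3 and 24.6 with Zalypsis against 8.14 and 12.5 in control cells. The sets 216647_at and 216645_at ran against the brightest set over the 8 arrays (Pearson r = -0.81 and -0.49, as a description). For 202648_at the lower value in OPM1-labelled cells rested on control replicate 1, at 82.6 against 32.8 for control replicate 2: its log2 fold change was -0.58 with that array and -0.17 without it. Many TCF3 sets carry the endings _x_at or _s_at, the maker's marks for probes that can match more than 1 transcript.

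**Figure D2:**
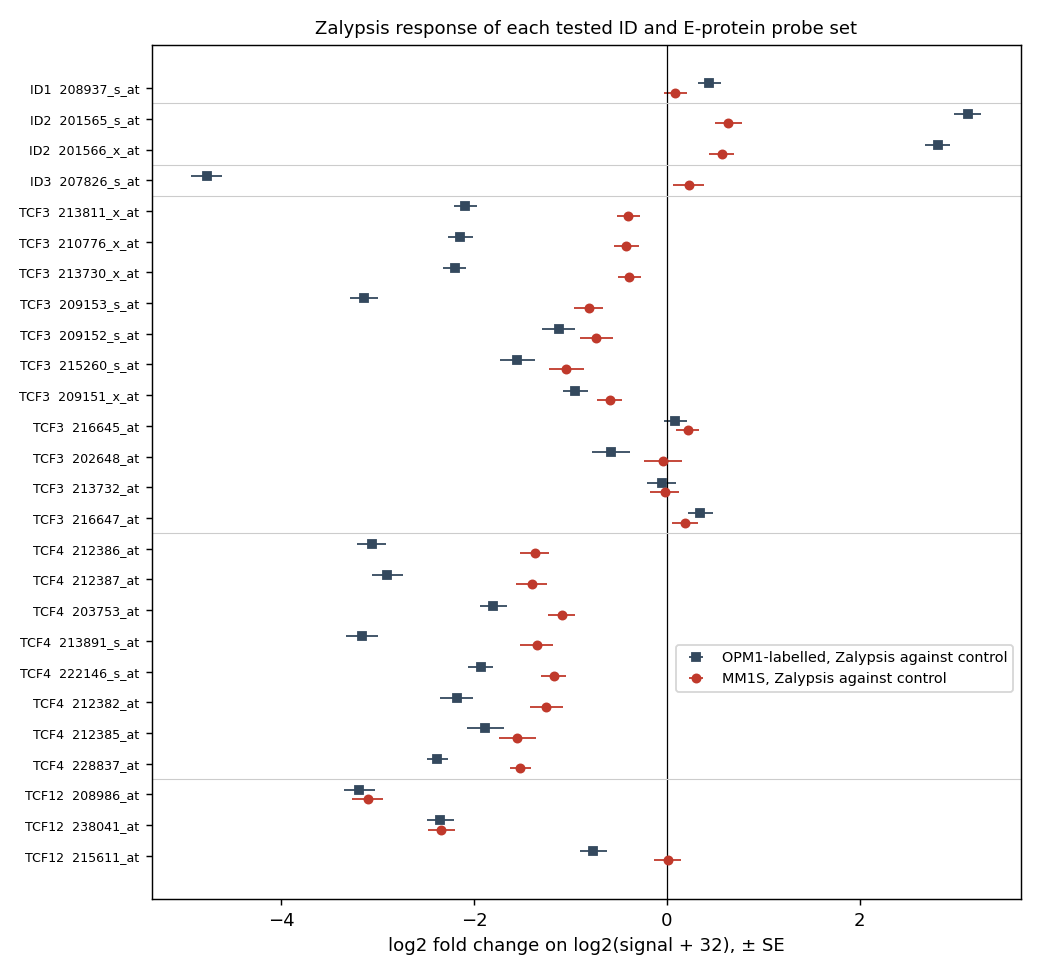
Log2 fold change of Zalypsis against control on log2(signal + 32) for the 26 tested probe sets, with the standard error of the fit as bars, in OPM1-labelled cells (squares) and MM1S (circles). The brighter set of ID2 stands at 3.12 and the set of ID3 at -4.77 in OPM1-labelled cells, and all 8 TCF4 sets lie below 0 in both lines. Within each of the 2 bright TCF12 sets the values of the lines lie close together on this scale. On the deposited scale the ratios of control to Zalypsis were 11.4 and 7.33 in OPM1-labelled cells and 17.4 and 16.7 in MM1S.

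The responses of the lines were set against each other as OPM1 response minus MM1S response. This contrast helped choose the members too, so its values are a description. Of the 26 probe sets 15 were called, 2 higher and 13 lower, beside 39.2% of all tested probe sets, 12.8% higher and 26.4% lower. ID2 had a difference of 2.47 ± 0.20 and 2.24 ± 0.19, and ID3 of -5.00 ± 0.23. The ID2 differences fell to 0.65 and 0.47 after scaling to the poly-A controls and were then not called.

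The E proteins varied by probe set. The 4 bright TCF3 sets differed by -2.33 to -1.69, while the other 7 tested ones lay between -0.54 and 0.16 and none was called. The TCF4 sets differed by -1.81 to -0.33, with 7 of 8 called. TCF12 differed by -0.09 ± 0.22 on 208986_at and by -0.02 ± 0.20 on 238041_at, and by -0.78 ± 0.20 on the dimmer 215611_at, which was called. The first 2 values do not show equal responses: the sign turned with a pseudocount of 16 (0.16 and 0.32), and after poly-A scaling the differences were -1.29 and -0.97. On the deposited scale the ratio of control to Zalypsis was 11.4 and 7.33 in OPM1-labelled cells, against 17.4 and 16.7 in MM1S.

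Without treatment, most E-protein probe sets were brighter in OPM1-labelled than in MM1S cells. Of the 26 probe sets 20 were called, 17 higher and 3 lower in OPM1-labelled cells, beside 57.4% of all tested probe sets, 25.7% higher and 31.7% lower. Of the 22 E-protein sets 16 were higher and 1 was lower. The groups did not overlap for 24 of the 26, where 77.2% of all tested probe sets had none. The comparison shares the OPM1-labelled control arrays with the OPM1 response, and the MM1S control arrays with the MM1S response. The OPM1 response helped choose the members, so the values of this comparison are a description.

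The 4 bright TCF3 sets were higher in OPM1-labelled cells by 1.32 to 1.46 on the log2 scale. The dimmer TCF3 sets went both ways. Higher were 202648_at (0.81), 215260_s_at (0.62) and 213732_at (0.23), the last not called, and 215260_s_at lost its call in 3 alternative settings. The value of 202648_at fell to 0.40 without OPM1-labelled control replicate 1. Lower were 216647_at (-0.36, called) and, not called, 209152_s_at (-0.34), 209151_x_at (-0.29) and 216645_at (-0.27). For 213811_x_at the mean was 4421 ± 251 in untreated OPM1-labelled cells and 1716 ± 121 in untreated MM1S cells, a log2 difference of 1.35 ± 0.12. TCF12 had 1263 ± 176 in OPM1-labelled cells and 475 ± 11.3 in MM1S cells on 208986_at (1.35 ± 0.16). TCF4 had 2819 ± 367 in OPM1-labelled cells and 1636 ± 217 in MM1S cells on 212386_at (0.77 ± 0.15). The other TCF4 sets ran from -0.09 to 1.25. Of these, 212385_at was not called and had overlapping groups, 222146_s_at (0.37) lost its call whichever untreated array was left out, and 203753_at (0.42) lost it without OPM1-labelled control replicate 1 (0.33).

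ID3 was higher and ID2 lower in untreated OPM1-labelled than in untreated MM1S cells, given here without a test. ID3 averaged 2399 ± 469 in OPM1-labelled cells and 113 ± 12.2 in MM1S cells, a log2 difference of 4.06 ± 0.16. ID2 averaged 189.7 ± 26.7 in OPM1-labelled cells and 428 ± 42.3 in MM1S cells on 201565_s_at, a log2 difference of -1.06 ± 0.14. ID1 averaged 19.0 ± 2.09 and 24.4 ± 3.73 in the same order (-0.14 ± 0.12, not called).

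With these levels the order of the groups differed from gene to gene. ID2 went down from OPM1-labelled cells with Zalypsis over MM1S with Zalypsis and MM1S control to OPM1-labelled control, with no neighbours overlapping. ID3 went down from OPM1-labelled control over MM1S with Zalypsis and MM1S control to OPM1-labelled cells with Zalypsis, and the MM1S neighbours lay within 0.23 ± 0.16 on the log2 scale. The brightest sets of TCF3, TCF4 and TCF12 were highest in OPM1-labelled control cells and next in MM1S control cells. TCF3 and TCF4 were lowest in OPM1-labelled cells with Zalypsis and TCF12 was lowest in MM1S with Zalypsis.

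The genes whose signals over the 8 arrays lay nearest to those of ID2, ID3 and TCF4 were sought among 13195 other tested genes, by the root mean square difference of log2 values centred on their own mean. For ID2, whose own values spread by 1.13 on that measure, they were GCC1 (0.22), CENPA (0.22) and AOC3 (0.25). GCC1, which encodes a Golgi protein, averaged 1069.6 ± 107 in OPM1-labelled cells with Zalypsis and 150.2 ± 2.44 in control cells of that line. CENPA, the centromere histone, averaged 727 ± 10.4 in OPM1-labelled cells with Zalypsis and 98.4 ± 17.7 in control cells. In MM1S both were modestly higher with Zalypsis, by 0.57 and 0.41 on the log2 scale.

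For ID3, with a spread of 1.86, the nearest were BEST3 (0.23), PRKAR2B (0.44) and RASSF6 (0.46). BEST3, which encodes a bestrophin channel, averaged 10.1 ± 0.0212 in OPM1-labelled cells with Zalypsis and 813 ± 7.35 in control cells. RASSF6 averaged 71.8 ± 14.0 in OPM1-labelled cells with Zalypsis and 1328 ± 150.4 in control cells. In MM1S the log2 fold changes were 0.06 for BEST3, -0.42 for PRKAR2B and -0.01 for RASSF6. For TCF4, with a spread of 1.19, the nearest were AGPS (0.08), RSF1 (0.10) and MYH10 (0.11), whose log2 fold changes ran from -1.45 to -1.33 in MM1S and from -3.24 to -2.82 in OPM1-labelled cells. Likeness over 8 arrays in 4 groups is a description.

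The ID and E protein genes differ greatly in the length of genome they span, by RefSeq. The ID genes span 1.22 kb (ID1), 2.41 kb (ID2), 1.58 kb (ID3) and 4.83 kb (ID4), while TCF3 spans 43.3 kb, TCF12 373 kb and TCF4 414 kb. Response differed between classes of span over all tested genes. Among 1577 genes under 5 kb in MM1S, calls were higher for 20.6% and lower for 2.92%, with a median log2 fold change of 0.14. Among 3896 genes of 50 to 300 kb, calls were higher for 4.36% and lower for 43.6%, with a median of -0.29. Among 460 genes of 300 kb or more, calls were higher for 2.61% and lower for 52.2%, with a median of -0.50.

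In OPM1-labelled cells calls were higher for 39.7% of the genes under 5 kb and lower for 11.6% (median log2 fold change 0.21). They were higher for 7.62% of the genes of 50 to 300 kb and lower for 60.1% (median -0.75), and higher for 8.26% of those of 300 kb or more and lower for 42.2% (median -0.17), so the shares did not follow span in order there. ID2 was a short gene that was higher in both lines, and TCF4 and TCF12 were long genes that were lower in both on their brightest sets. ID3 was a short gene that was lower in OPM1-labelled cells. TCF3, of middling span, belonged to a class of 5 to 50 kb in which 29.0% were higher and 26.5% lower in OPM1-labelled cells, and 17.6% and 7.14% in MM1S. The part of span in these responses was not tested.

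**Figure D3:**
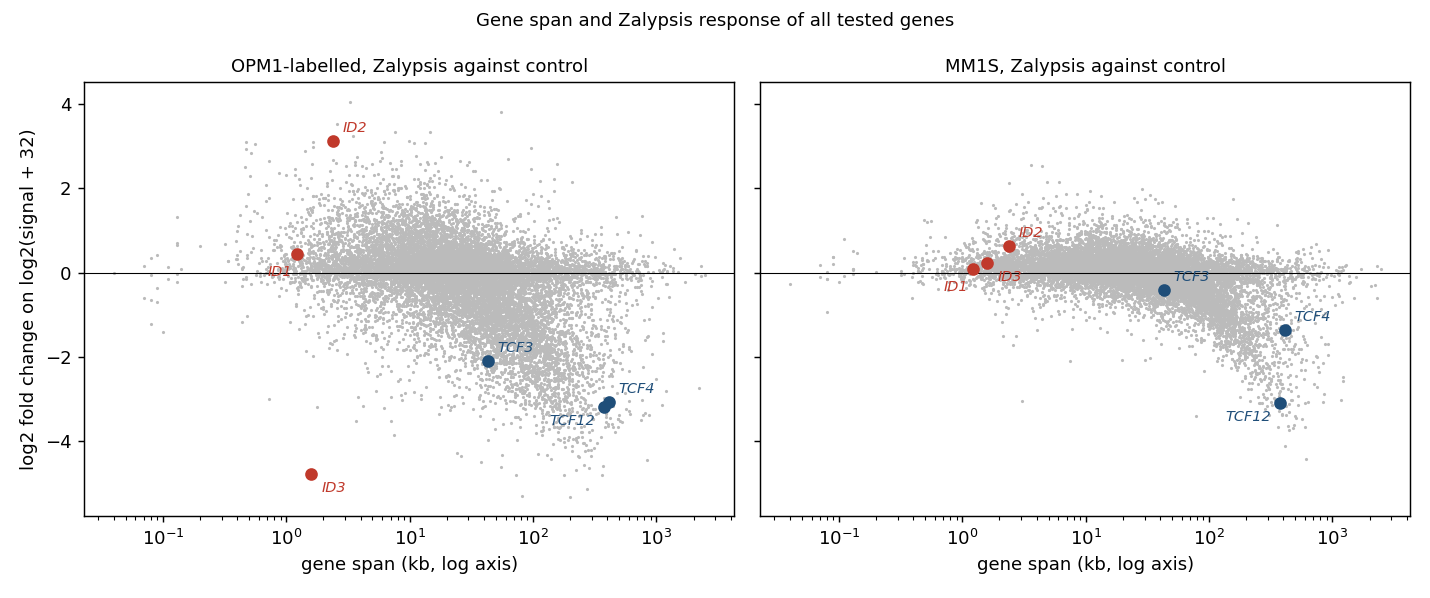
Span of each tested gene in kb (log axis) against its log2 fold change on log2(signal + 32), Zalypsis against control, in OPM1-labelled cells (left) and MM1S (right), each gene by its brightest probe set. Grey points are all tested genes with a span. ID2 (2.41 kb) lies above 0 in both lines, ID3 (1.58 kb) lies at -4.77 in OPM1-labelled cells, and TCF4 (414 kb) and TCF12 (373 kb) lie below 0 in both.

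Genes around the ID and E proteins were read in 5 lists, each gene by its brightest probe set. Over all 13201 genes tested, MM1S had 13.5% called higher and 19.0% called lower, with a median log2 fold change of 0.02, and OPM1-labelled cells had 23.2% called higher and 35.2% called lower, with a median of -0.04. The lists were drawn up with earlier results of these data known. Their counts are descriptions beside those shares. The genes named from each list were picked because they were called with the largest changes in a line. The adjusted p-values printed for them are therefore not independent of that choice and only describe the values.

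B-lineage targets of the E proteins were mostly lower in OPM1-labelled cells, where most of them were brighter before treatment. Of 15 tested, 13 were lower and none higher in OPM1-labelled cells (median log2 fold change -2.93), while 1 was higher and 2 were lower in MM1S (median -0.03). PAX5, the factor that holds B-cell identity, averaged 50.9 ± 19.7 in OPM1-labelled cells with Zalypsis and 3219 ± 476 in control cells (log2 -5.31 ± 0.17). EBF1, its partner upstream, averaged 11.8 ± 3.92 with Zalypsis and 512 ± 27.0 in control cells (-3.63 ± 0.15). In MM1S both lay between 3.38 and 19.3 on every array, so they passed the filter through the OPM1-labelled arrays and a fall could not be measured in MM1S. The counts of the lines are therefore not comparable. BLNK, an adaptor of the B-cell receptor, changed by -3.20 in OPM1-labelled cells, and POU2AF1, a B-cell coactivator, by -3.10 there and by -0.68 in MM1S.

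FOXO1, which acts with E proteins in early B cells, averaged 39.9 ± 3.31 in MM1S with Zalypsis and 123 ± 22.7 in control cells (log2 -1.10 ± 0.14, limma adjusted p = 3.0e-05), and changed by -3.08 in OPM1-labelled cells. CCND3, a D cyclin that TCF3 can induce, rose in MM1S (0.76 ± 0.16, limma adjusted p = 0.0023) and was lower in OPM1-labelled cells (-1.63). Among untreated cells 13 of the 15 were higher in OPM1-labelled cells and 2 lower, where 26.5% of all tested genes were higher and 32.3% lower. PAX5 and EBF1 are among the 15 only through the OPM1-labelled arrays, so the filter partly set their direction here and in the OPM1 response. Both comparisons also share the OPM1-labelled control arrays. These counts therefore only describe the list. The B-cell marker list, which shares PAX5, EBF1 and CD79B with this list, moved with it: 5 of its 7 tested genes were lower and 1 was higher in OPM1-labelled cells with Zalypsis. Its part in the result was not tested.

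The SMAD pathway, through which BMP and TGF-beta signals induce ID genes, had 22 tested genes. In MM1S 3 were higher and 6 lower (median -0.12), and in OPM1-labelled cells 3 were higher and 12 lower (median -0.62). BAMBI, a decoy receptor of the pathway, averaged 115 ± 7.87 in MM1S with Zalypsis and 18.6 ± 3.25 in control cells (log2 1.54 ± 0.12, limma adjusted p = 5.5e-07). SKIL, a SMAD corepressor, rose too (0.90 ± 0.17, limma adjusted p = 0.001). In OPM1-labelled cells BAMBI changed by 0.32 and SKIL by 0.43. The receptor TGFBR2 fell in MM1S (-1.36) and changed by -1.08 in OPM1-labelled cells.

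The signal transducer SMAD3 fell by 0.96 on the log2 scale in MM1S and was lower by 2.91 in OPM1-labelled cells, at 11.5 ± 7.45 with Zalypsis and 294 ± 13.7 in control cells. SMAD1, which carries BMP signals, changed by -1.91, the ubiquitin ligase SMURF2 by -1.58 and the corepressor SKI by -1.48 in OPM1-labelled cells. None of the last 3 was called in MM1S, where their log2 fold changes were -0.23, -0.23 and -0.17.

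Other bHLH factors, among them class II partners of E proteins, moved both ways. Of 15 tested, 5 were higher and 3 lower in MM1S (median 0.12), and 4 were higher and 5 lower in OPM1-labelled cells (median -0.03). BHLHA15 (MIST1), a factor of secretory cells, averaged 141 ± 0.099 in MM1S with Zalypsis and 419.7 ± 82.4 in control cells (log2 -1.37 ± 0.16, limma adjusted p = 1.6e-05), and changed by -1.15 in OPM1-labelled cells. BHLHE40, a repressor, averaged 615 ± 41.8 in MM1S with Zalypsis and 254 ± 41.4 in control cells (1.18 ± 0.15, limma adjusted p = 3.2e-05), and changed by -0.48 in OPM1-labelled cells.

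BHLHE22 was higher in MM1S (0.54) and changed by -0.03 in OPM1-labelled cells. HAND1 was dim, with 53.1 and 30.4 in MM1S with Zalypsis against 19.1 and 25.5 in control cells. Its log2 fold change was 0.43 in MM1S and also 0.43 in OPM1-labelled cells. NHLH1, a neural factor, averaged 131 ± 30.4 in OPM1-labelled cells with Zalypsis and 18.0 ± 1.71 in control cells (1.69 ± 0.14), and changed by 0.42 in MM1S. LYL1, a haematopoietic partner of E proteins, changed by -0.77 and HES1, a Notch target, by -0.70 in OPM1-labelled cells.

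Cofactors and regulators of stability had 16 tested genes, 2 higher and 5 lower in MM1S (median -0.05), and 3 higher and 8 lower in OPM1-labelled cells (median -0.49). NEDD9, an adaptor reported to bind ID2, averaged 39.3 ± 0.0354 in MM1S with Zalypsis and 212 ± 0.488 in control cells (log2 -1.78 ± 0.12, limma adjusted p = 1.0e-07), and changed by -1.53 in OPM1-labelled cells. The coactivator CREBBP changed by -1.21 in MM1S and -2.39 in OPM1-labelled cells, the corepressor CBFA2T3 by -1.0 and -1.99. The acetyltransferase KAT2B changed by -0.94 in MM1S and -0.85 in OPM1-labelled cells. CDC20, an activator of the ubiquitin ligase that can degrade ID proteins, averaged 2860.2 ± 203 in OPM1-labelled cells with Zalypsis and 1157 ± 114 in control cells (1.28 ± 0.16), and was not called in MM1S (0.14).

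Cell cycle genes that ID and E proteins regulate or act through had 17 tested members. In MM1S 6 were higher and 5 lower (median 0.08), and in OPM1-labelled cells 3 were higher and 8 lower (median -0.23). CDKN1A, the p21 gene and a classic E protein target, averaged 3502 ± 201 in MM1S with Zalypsis and 906 ± 226 in control cells (log2 1.93 ± 0.16, limma adjusted p = 7.5e-07), but 302 ± 7.05 and 1113 ± 37.2 in OPM1-labelled cells with Zalypsis and control (-1.78 ± 0.16). CDKN1C, another inhibitor, rose in MM1S (1.39) and changed by 0.40 in OPM1-labelled cells. CDK6, which drives entry into S phase, changed by -2.19 in MM1S and -4.34 in OPM1-labelled cells, and in OPM1-labelled cells it averaged 48.9 ± 0.643 with Zalypsis and 1615 ± 175 in control cells.

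RB1, whose protein binds ID2, averaged 60.6 ± 4.41 in OPM1-labelled cells with Zalypsis and 1383 ± 251 in control cells (-3.92 ± 0.15), and changed by -1.33 in MM1S. Its relative RBL1 changed by -1.33 in MM1S and -1.31 in OPM1-labelled cells. ETS1, an activator that ID proteins antagonize, changed by -2.74 in OPM1-labelled cells and -0.92 in MM1S. MYC, an inducer of ID2, was lower with Zalypsis in both lines. It averaged 679 ± 25.7 in MM1S with Zalypsis and 3022 ± 58.5 in control cells (-2.10 ± 0.18, limma adjusted p = 8.3e-07). In OPM1-labelled cells it averaged 271 ± 3.41 with Zalypsis and 4477 ± 1411 in control cells (-3.86 ± 0.18). The part of MYC in the ID2 values was not tested.

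**Figure D4:**
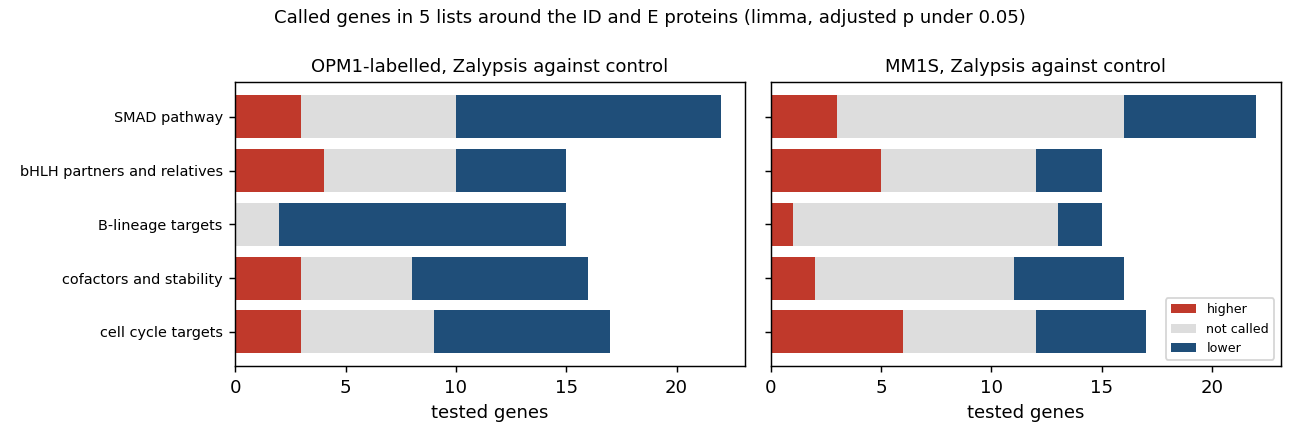
Number of tested genes called higher, not called and called lower (limma adjusted p under 0.05) with Zalypsis in 5 lists, in OPM1-labelled cells (left) and MM1S (right). The B-lineage list has 13 of 15 genes lower in OPM1-labelled cells and 2 of 15 in MM1S, where PAX5 and EBF1 lay near background.

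By the study's own rule, a change of more than 2-fold on the deposited scale, 11 of the 26 probe sets changed in MM1S, all lower, beside 14.8% of all tested probe sets. They were the 8 sets of TCF4, the 2 bright sets of TCF12 and 215260_s_at of TCF3. In OPM1-labelled cells 23 of the 26 did, 3 higher and 20 lower, beside 38.5% of all. Between the untreated lines 12 did, beside 32.8%. With 2 arrays a group, an exact permutation test of 1 probe set cannot go below p = 0.33, so the limma fit, which borrows spread across probe sets, carries every adjusted p given here.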

How the data were processed

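Expression was measured on 8 arrays in 4 groups of 2, grouped by sample title. Amplification started from 100 ng of RNA and ran for 2 cycles before biotin labelling, per the labels' protocols. Signals come from dChip, per the design text of the series. The deposited values are intensity signals on a linear scale, normalized by the authors in a way not given in the sources used here. Arrays have no read depth, and precision is limited by having 8 of them. Probe sets took the gene symbol of the platform annotation, updated through RefSeq for 41037 of 41091. 1 probe set that lists ID2 with another gene was left out.

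Signals were turned into log2(signal + 32), the 40% with the lowest mean were dropped, and the other 24652 probe sets entered limma 3.58.1 (R 4.3.3; eBayes with trend) as group means with a common variance on 4 residual degrees of freedom. Benjamini-Hochberg adjustment ran over all 24652. The fit was tested on simulated data. Errors of log2 values are SE, and those of signals are SD. Replicate numbers were not taken as pairs: deviations of same-numbered arrays correlated at 0.25 in MM1S and 0.30 in OPM1-labelled cells, but at 0 to 0.06 across lines. Arrays of a group correlated at 0.988 to 0.993. Any pair of the 8 arrays shared at most 441 identical values, so all were counted.

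The members and lists were chosen with earlier results of these data known. Named are all members, PAX5, MYC and CDKN1A, up to 4 called genes of each list with the largest change in each line, and the 3 genes nearest to ID2, ID3 and TCF4. SDC1, CD38, CD27 and CD14 are named as markers. Alternatives covered the pseudocount, filter, normalization, poly-A scaling, choice of probe sets, the variance trend, a replicate block and each array left out.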

Additional observations from a re-analysis of the deposited data

Results flagged for a closer look

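For 15 of the 26 tested probe sets the response to Zalypsis differed between the lines by the interaction term of the fit, as OPM1 response minus MM1S response on the log2 scale. ID2 and ID3 were chosen with this contrast known, so the list is a description. Single arrays were not tested as outliers, since each group has 2. ID2 differed by 2.47 (201565_s_at) and 2.24 (201566_x_at), higher with Zalypsis in both lines and by more in OPM1-labelled cells. ID3 differed by -5.00, being lower in OPM1-labelled cells and close to its control in MM1S. TCF3 differed by -2.33 (209153_s_at), -1.81 (213730_x_at), -1.72 (210776_x_at) and -1.69 (213811_x_at). TCF4 differed by -1.81 (213891_s_at), -1.70 (212386_at), -1.50 (212387_at), -0.93 (212382_at), -0.86 (228837_at), -0.75 (222146_s_at) and -0.70 (203753_at), having fallen in both lines and further in OPM1-labelled cells. TCF12 differed by -0.78 on the dim 215611_at alone.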

How the results depend on the processing

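Over 21 alternative settings 1914 member values were recomputed. Of these, 1806 kept direction and side of the threshold, 56 kept direction and lost the call, 17 gained one and 35 changed sign. Among the 35, 2 had a limma adjusted p under 0.05. The 2-fold setting has no p, and there TCF12 238041_at changed sign to 1.19 in the difference, which is over 2-fold. The cause of these changes was not tested. Counts of called members in MM1S, OPM1-labelled cells, the difference and the untreated lines were 19, 24, 15 and 20. By construction they were 4, 5, 4 and 5 of 5 with 1 brightest probe set per gene, 4, 6, 5 and 5 of 6 with the mean of a gene's sets, and 8, 11, 6 and 10 of 13 without shared sets. Over 2-fold, 11 were counted in MM1S and 12 between untreated lines. Leaving out each array gave 15 to 19, 22 to 24, 15 to 16 and 17 to 20. The replicate block gave 19, 24, 15 and 20 and changed no member's call. It used 1 term for replicate number in both lines together, so pairing within a line was not tested. Poly-A scaling gave 14, 25 and 22 and could not be run between lines.

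Of all called probe sets 61.0%, 62.1%, 67.3% and 55.2% were lower, against 51.5%, 48.2%, 53.0% and 49.2% after quantile normalization and, in the first 3 comparisons, 84.6%, 99.4% and 97.5% after poly-A scaling, with medians of -0.13, -1.15 and -1.03. All called probe sets numbered 7999, 14368, 9675 and 14144, but 22000 (OPM1) and 19426 (difference) after poly-A scaling, and 3659 (MM1S), 9484 (OPM1) and 8096 (untreated) over 2-fold. Counts also fell with fewer sets tested: to 4546, 7655, 5642 and 7683 with the brightest set, 4318, 7352, 5139 and 7305 with the mean of sets, and 5368, 9130, 6222 and 9148 without shared sets.

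Changes of sign in MM1S were ID1 -0.01 (poly-A), TCF12 215611_at 0.00 (quantile), -0.08 (poly-A) and -0.19 to 0.21 (each array left out), and TCF3 202648_at -0.09 to 0.01 and 213732_at -0.08 to 0.04 (each array left out). In OPM1-labelled cells they were, with poly-A scaling, ID1 -0.33, TCF3 216645_at -0.77 and 216647_at -0.18, and 213732_at 0.00 (quantile) and -0.22 to 0.12 (each array left out). For the difference they were, with poly-A scaling, ID1 -0.32 and TCF3 216647_at -0.27, TCF3 213732_at 0.04 (quantile) and -0.20 to 0.14 (each array left out), TCF12 208986_at 0.16 (pseudocount 16), 0.05 (quantile), 0.61 (deposited scale) and -0.28 to 0.09 (each array left out), and TCF12 238041_at 0.32, 0.00, 1.19 and -0.21 to 0.18 in the same settings. Between untreated lines TCF4 212385_at gave 0.11 (quantile) and -0.42 to 0.23 (each array left out).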
